A study of Caenorhabditis elegans with 95 samples.

Results

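Nuclear hormone receptors are transcription factors that bind DNA through zinc fingers and, in many cases, a small lipophilic ligand such as a steroid or fatty acid. *C. elegans* carries far more of them than vertebrates do, most of them named nhr and most descended from an ancestor related to the vertebrate receptor HNF4. The few with a known role control fat storage and breakdown, the disposal of propionate, the response to toxins and pathogens, molting and tissue identity, and the large majority have no assigned role. The genes examined here were those of the count table whose symbol starts with nhr-, kept where the median CPM (the count of the gene scaled by the total of its library) reached 0.5 in N2 or in CB4856. Of 46904 genes in the table, 268 nhr genes were considered and 183 met this minimum, 172 in both strains, 6 in N2 alone and 5 in CB4856 alone.

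The libraries came from total RNA of whole *C. elegans* kept on 15 µg/mL doxycycline (Dox), an antibiotic that blocks mitochondrial translation, so no untreated worms enter any comparison. The groups were N2, the laboratory strain from Bristol (4 libraries), CB4856, a wild isolate from Hawaii (6 libraries), and 85 recombinant inbred advanced intercross lines (RIAILs), each sequenced once. The RIAILs descend from CB4856 and QX1430, an engineered strain in the N2 background, so the N2 libraries are not the exact parent of the lines. Library totals lay between 22121202 and 23879871 counts, and the 183 genes together took a median of 0.182% of the counts in N2, 0.202% in CB4856 and 0.203% in the RIAILs. No source used here says whether libraries of one strain came from separate cultures, so that p-values measure only the spread between these libraries. In libraries of whole worms, fewer cells of a type and less RNA per cell cannot be told apart.

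Several features of the libraries bear on what follows. The stage and germline of the worms varied: the summed CPM of 12 oocyte marker genes was 265 to 2288 in N2, 281 to 753 in CB4856 and 170 to 2646 in the RIAILs, and N2 replicate 1 was the N2 library with the low value. The summed CPM of 6 intestinal marker genes was 5199 to 6766 in N2 and 6065 to 8747 in CB4856. The mean z score of these 6 genes was -1.86 to -0.82 in N2 and -0.27 to 1.02 in CB4856, without overlap. All of these markers had counts in both strains. The mean z score of 7 male genes was highest in the RIAILs QX501 (4.12) and QX505 (3.27). The RIAIL QX571 stood apart within the receptor family: 33 of the 183 genes (18.03%) had their highest log2 CPM of all RIAILs there, against 9.12% of the 17058 genes with usable counts. Results that rest on the RIAILs are therefore given without QX501 and without QX571 where the call changed, and no fit without QX505 was run.

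The family lies mostly on one chromosome: 120 of the 183 genes were on V, 25 on IV, 15 on X, 10 on II, 8 on I and 5 on III (WBcel235). All 183 are annotated as protein coding, and 45 share exon sequence with another annotated gene, for which the counts may not be separable. Many of the genes sat in runs. The 7 runs of at least 5 genes, with no more than 50 kb between successive starts, held 66 of the genes. A run of 5 genes lay on IV and the rest on V. The run with the most genes held 19 over 104.5 kb from position 2192485, and the next held 16 genes over 90 kb from position 451451, both on V.

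Most receptor genes were expressed at a low level. The median over the 183 genes was 5.10 CPM in N2 and 5.77 CPM in CB4856, with 39 genes at 10 CPM or more in N2 and 49 in CB4856, and 3 genes had no count in at least 1 library. Divided by exon length, the highest median levels in N2 were those of nhr-49 at 46.4 CPM per kb, nhr-114 at 39.1, nhr-31 at 37.3, nhr-97 at 27.3 and nhr-23 at 22.8. The order in CB4856 was nhr-114 (66.6 CPM per kb), nhr-49 (48.1), nhr-68 (38.5), nhr-31 (37.3) and nhr-97 (32.4). NHR-49 governs fatty acid desaturation and the fasting response, NHR-114 acts in the response to low vitamin B12 and NHR-31 in tubule formation of the excretory cell. The levels of nhr-49 were also the steadiest of the family over the RIAILs, with an SD of 0.08 on the log2 CPM scale and a range of 83.7 to 123.2 CPM, whereas nhr-114 ranged from 21.7 to 125 CPM. The neighbours nhr-49 and nhr-114 overlapped on the per-kb scale in N2, since nhr-114 ranged from 32.1 to 78.6 CPM in those 4 libraries. Near the minimum, the genes just inside were nhr-198 (higher strain median 0.598 CPM), nhr-263 (0.688) and nhr-124 (0.692), and those just outside were nhr-167 (0.496), nhr-150 (0.496) and nhr-199 (0.490). The role gene nhr-2, which acts in the embryo, was at 0.211 to 0.520 CPM in N2 and was not kept.

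To ask which receptor genes differ between the wild isolate and the laboratory strain, CB4856 was compared with N2 by edgeR's quasi-likelihood test over 15718 genes, with Benjamini-Hochberg adjustment and a threshold of 0.05. Fewer receptor genes were lower in CB4856 than were higher. Of 182 tested, 27 were higher and 6 lower, while among all genes tested 8.76% were called higher and 7.18% lower (15.9% in all). The 11 genes that met the CPM minimum in a single strain were selected on the side where they are high and had to differ. Of these, 4 are among the called genes (nhr-155 and nhr-227, kept through CB4856, and nhr-113 and nhr-123, kept through N2), and their strain values are given below as a description, without a test. Among the 172 genes that met it in both strains, 25 were higher and 4 lower, and the median log2 fold change was 0.27 against 0.00 over all genes. Ranges of the strains did not overlap for 17 genes higher in CB4856 and 8 lower, where all genes gave 6.06% and 8.06%. The oocyte and intestinal markers given above also differed between the strains (6 of 12 oocyte genes were called lower and 2 of 6 intestinal genes, elt-2 and ges-1, higher in CB4856), and their part in these differences was not tested.

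**Figure D1:**
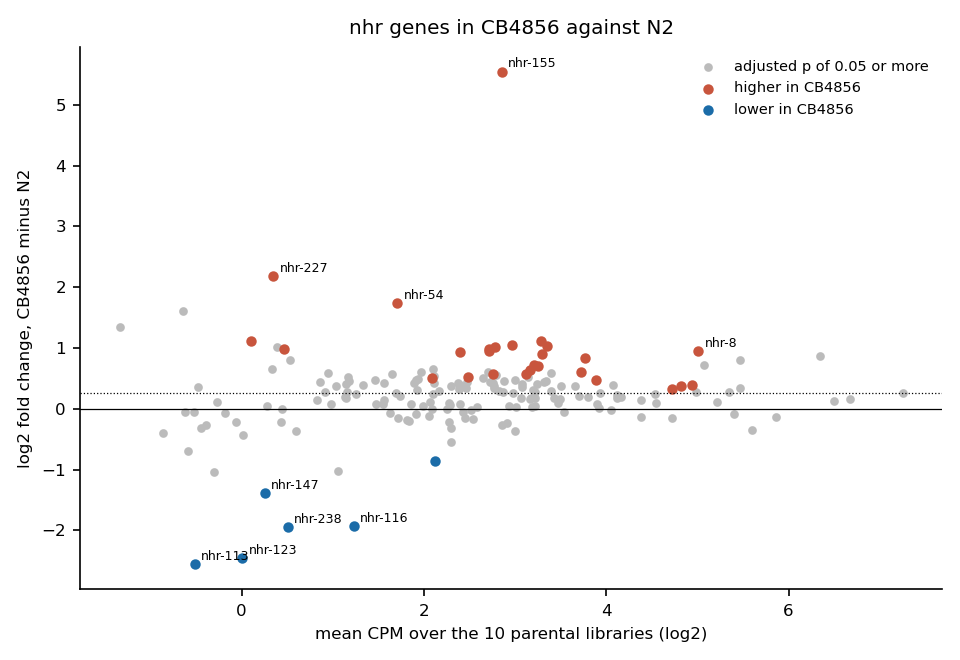
Log2 fold change of each tested nhr gene in CB4856 relative to N2 (vertical axis) against its mean CPM over the 10 parental libraries (horizontal axis, log2); red and blue points passed the test, grey points did not, and the dotted line marks the median of 0.27. The 27 red points reach up to 32.2 CPM (nhr-8) and the 6 blue points up to 4.36 CPM (nhr-99), and the genes at higher levels are grey.

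nhr-155 on V (539460 to 541485, plus strand), which has no assigned role, was kept through CB4856 alone. It was at 0.422, 0.341, 0.173 and 0.131 CPM in the 4 N2 libraries and at 4.70 to 26.5 CPM (median 9.28) in CB4856. No N2 library came near the CB4856 range. nhr-227 (V, 2285432 to 2287480), also kept through CB4856 alone, was at 0.548, 0.299, 0.260 and 0.611 CPM in N2 and at 1.202 to 2.37 CPM (median 1.83) in CB4856. Among genes kept through both strains, the largest increase was that of nhr-54 (V, 16503944 to 16505928). It was at 2.07, 1.11, 1.39 and 1.13 CPM in N2 and 3.63 to 5.91 CPM (median 4.09) in CB4856, a log2 fold change of 1.75 (SE 0.26, adjusted p = 0.000999). The ranges of the strains were separate. The next largest increases were those of nhr-115 (1.11, SE 0.24), nhr-110 (1.05, SE 0.21) and nhr-127 (1.11, SE 0.34) on V, and nhr-121 (1.03, SE 0.13) and nhr-6 (1.02, SE 0.30) on III. nhr-121 was the most even of these, at 6.07, 6.57, 6.19 and 7.598 CPM in N2 and 10.9 to 14.5 CPM in CB4856.

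In the opposite direction, nhr-123 (V, 451451 to 453759), kept through N2 alone, was at 2.23, 1.96, 1.86 and 1.97 CPM in N2 and at 0.128 to 0.734 CPM (median 0.260) in CB4856. Among genes kept through both strains, the largest decreases were those of nhr-238 and nhr-116. nhr-238 (V, 1628105 to 1629432) was at 4.05, 2.18, 2.08 and 2.14 CPM in N2 and 0.429 to 0.863 CPM in CB4856, with a log2 fold change of -1.95 (SE 0.30, adjusted p = 0.00122). nhr-116 (V, 16912234 to 16915350) was at 4.43, 4.52, 3.55 and 4.67 CPM in N2 and 0.601 to 1.29 CPM (median 1.08) in CB4856, with a log2 fold change of -1.93 (SE 0.21, adjusted p = 0.000119). All 3 were separate between the strains. nhr-147 (-1.39, SE 0.33) and nhr-99 (-0.86, SE 0.20) were also lower, both kept through both strains. nhr-113 on I, kept through N2 alone, was at 0.393 to 3.04 CPM in N2 and 0.0427 to 0.820 CPM in CB4856, with overlapping ranges. Its neighbour nhr-74 on I, likewise kept through N2 alone, was at 4.30, 1.41, 1.43 and 0.393 CPM in N2 and had no count in 4 of 6 CB4856 libraries; it fell below the filter on low counts and was not tested. Reads of all strains were aligned to the N2 genome, and how much sequence differences of CB4856 took from its counts was not tested.

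Higher and lower genes sat side by side. In the run of 16 genes from position 451451 on V, nhr-155, nhr-203, nhr-130 and nhr-132 were higher in CB4856 whereas nhr-123 and nhr-99 were lower. In the run of 7 genes from position 1603906, nhr-110 was higher and nhr-238, whose start lies 5.84 kb away, was lower. In the run of 19 genes from position 2192485, nhr-13, nhr-115, nhr-226 and nhr-227 were higher and none was lower. V, which carries 120 of the 183 genes, held 18 of the 27 higher and 5 of the 6 lower genes. These counts include nhr-155, nhr-227 and nhr-123, kept through a single strain.

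Libraries of the same batch number were treated as pairs, as the titles call these numbers batches. With the number as a replicate block over the 8 numbered libraries, 23 receptor genes were called (18 higher, 5 lower), against 17 (14 higher, 3 lower) for the same 8 libraries without the block. Of the genes named here, nhr-12 (adjusted p = 0.147), nhr-13 (0.139), nhr-28 (0.0911), nhr-35 (0.0815), nhr-86 (0.107), nhr-127 (0.0807) and nhr-147 (0.0765) were not called with the block, and none of these 7 was called in the 8 libraries without it either (adjusted p = 0.0560 to 0.151). With the block, nhr-114 (0.0436), nhr-41 (0.0416) and nhr-68 (0.0487) were called higher in CB4856. The letter of the library name marks 7 library series, and series B, F and G alone hold both strains. With series as a block 2 receptor genes were called, nhr-116 and nhr-155, of which nhr-155 was kept through CB4856 alone. Without N2 replicate 1, 58 were called (52 higher, 6 lower), without N2 replicate 2, 19, and without N2 replicate 3, 20. Counts over all genes are not given for these settings, so a change in the family cannot be told from a change over all genes.

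Of the 31 kept genes with a known or proposed role, 8 were higher in CB4856 and 0 lower by edgeR, with 1 of them, nhr-23, lower at an unadjusted p under 0.05. Over all genes tested, 8.76% were called higher and 7.18% lower, and these shares also stand beside the role and list counts below. The roles and lists were chosen with earlier results of these data known. nhr-23 was at 48.9, 65.6, 62.2 and 53.2 CPM in N2 and 34.9 to 46.7 CPM in CB4856, so that the strains did not overlap. It was called lower by DESeq2 (adjusted p = 0.0207) and with RLE size factors (0.0492), but not by limma-voom. Over the whole family 67 of 182 genes had an unadjusted p under 0.05. Exon sequence is shared with another gene for nhr-6, nhr-8, nhr-28, nhr-57, nhr-86, nhr-116, nhr-127 and nhr-147.

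**Figure D2:**
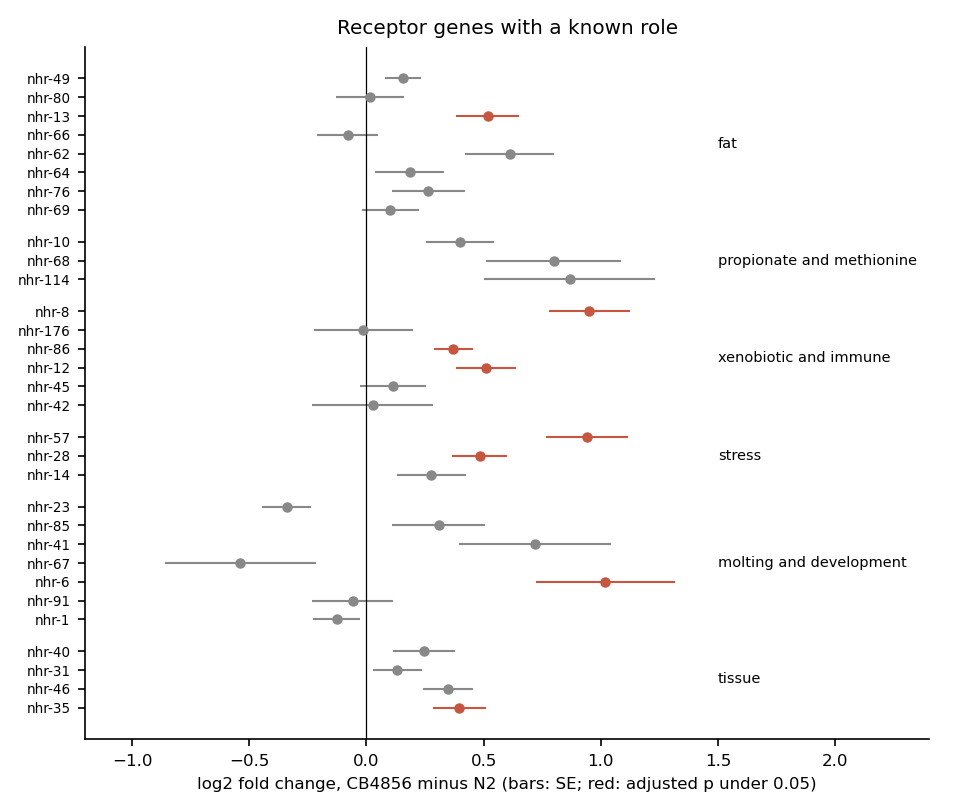
Log2 fold change of 31 nhr genes with a known or proposed role, CB4856 minus N2 (horizontal axis; bars are SE from edgeR), grouped by role; red points passed the test. The 8 red points all lie above 0, from 0.37 for nhr-86 to 1.02 for nhr-6.

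Among 8 genes of fat metabolism, nhr-13, a partner of NHR-49 in the control of desaturases, was higher (log2 fold change 0.52, SE 0.14). nhr-49 itself was at 97.8, 90.1, 99.9 and 110 CPM in N2 and 97.3 to 113 CPM in CB4856, and the log2 fold change was 0.15 (SE 0.08, adjusted p = 0.2002). nhr-80, which drives desaturase expression, gave 0.01 (SE 0.14) and nhr-62, which acts in the longevity of dietary restriction, 0.61 (SE 0.19, adjusted p = 0.0521). Of 8 fat metabolism genes known to depend on NHR-49, fat-6, icl-1 and hacd-1 were higher in CB4856 (log2 fold changes 0.85, 1.02 and 0.81) and the other 5 did not pass the test, with a list median of 0.81 against 0.00 over all genes.

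None of the 3 genes of propionate and methionine metabolism passed the test. nhr-10 and nhr-68, which switch on the propionate shunt together, gave log2 fold changes of 0.40 (SE 0.15, adjusted p = 0.0900) and 0.80 (SE 0.29, adjusted p = 0.0871), and nhr-114 0.87 (SE 0.37, adjusted p = 0.138). The nhr-68 result moved with N2 replicate 3 and with the method. Its 4 N2 values were 25.5, 27.1, 51.1 and 24.7 CPM against 29.5 to 72.5 CPM in CB4856, and the adjusted p was 0.0296 without the third library, 0.0473 by DESeq2 and 0.0487 with the replicate block. nhr-114 had an adjusted p of 0.0264 without CB4856 replicate 5, whose 35.03 CPM lay apart from the 85.8 to 149 CPM of the other CB4856 libraries. Of 5 propionate shunt genes, hphd-1, a dehydrogenase of the shunt, was higher in CB4856 (log2 fold change 1.36, SE 0.35), and none of 10 methionine cycle genes was called.

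Of 6 xenobiotic and immune receptor genes, 3 were higher. nhr-8, a receptor of cholesterol and xenobiotic handling, was at 22.8, 18.3, 21.4 and 24.3 CPM in N2 and 32.7 to 57.5 CPM in CB4856 (log2 fold change 0.95, SE 0.17, adjusted p = 0.00387). The strains did not overlap. nhr-86, which acts in sensing of bacterial pathogens, rose by 0.37 (SE 0.08) and nhr-12 by 0.51 (SE 0.13). nhr-176, which mediates detoxification of a benzimidazole drug, gave -0.01 (SE 0.21). Of 9 cytochrome P450 genes of the cyp-35 group, enzymes of xenobiotic detoxification, 7 were tested and cyp-35A5 (log2 fold change 2.47), cyp-35B1 (2.34), cyp-35D1 (1.24) and cyp-35C1 (0.87) were higher in CB4856.

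Of the stress genes, nhr-57, a target of the hypoxia factor HIF-1, was at 4.01, 3.11, 2.95 and 4.19 CPM in N2 and 5.27 to 7.64 CPM in CB4856 (log2 fold change 0.94, SE 0.18, adjusted p = 0.00458), and nhr-28 was higher by 0.48 (SE 0.12). nhr-14, which represses iron uptake genes, gave 0.28 (SE 0.15, adjusted p = 0.237). In the molting and development group nhr-6, which is needed for the spermatheca, was higher, and the molting regulator nhr-23 had an adjusted p of 0.0524 (log2 fold change -0.34, SE 0.11). nhr-35 (0.40, SE 0.11) was the called gene among 4 placed by tissue. nhr-46 (0.35, SE 0.11, adjusted p = 0.0502) was called by DESeq2 (0.0150). Calls of nhr-6, nhr-35, nhr-12, nhr-13, nhr-28 and nhr-127 were lost when single libraries were left out. The call of nhr-127 was also lost with RLE size factors (adjusted p = 0.0556), by limma-voom (0.0602) and without the filter on low counts (0.0659). Without that filter nhr-12 (0.0673), nhr-13 (0.0673) and nhr-35 (0.0581) were not called by edgeR either. Among 4 tested receptors with other names, daf-12, sex-1, unc-55 and fax-1, none was called. Of 9 tested cofactor and steroid hormone pathway genes, daf-36, an oxygenase of dafachronic acid synthesis (1.10, SE 0.21), and ncr-1, a cholesterol transporter (0.67, SE 0.21), were higher.

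The RIAILs carry mosaics of both parental genomes, and the question was which receptor genes vary among them beyond the spread seen within a strain. Since each RIAIL has 1 library, the spread within a strain was taken from N2 and CB4856. Few receptor genes passed: 6 of 183 (3.28%), where 916 of 17058 genes (5.37%) did. The SD of log2 CPM over the RIAILs ranged from 0.08 to 2.11 among the 183 genes (median 0.32, against 0.40 over all genes). It exceeded the SD within the parental strains for 126 of the 183 genes, a count that was not made over all genes. All 6 lie on V: nhr-155 (SD 2.11), nhr-123 (1.399), nhr-227 (1.12), nhr-116 (1.07), nhr-238 (1.00) and nhr-195 (0.49). Of the first 5, nhr-116 and nhr-238, kept through both strains, were also called between the parental strains. The other genes, nhr-155, nhr-123 and nhr-227, were kept through a single strain, so their parental calls are not set beside this result. The count was 2 to 10 with single parental libraries left out: 10 without N2 replicate 1, 3 each without N2 replicate 2, N2 replicate 3, CB4856 replicate 2 and CB4856 replicate 4, and 2 without CB4856 replicate 3.

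**Figure D3:**
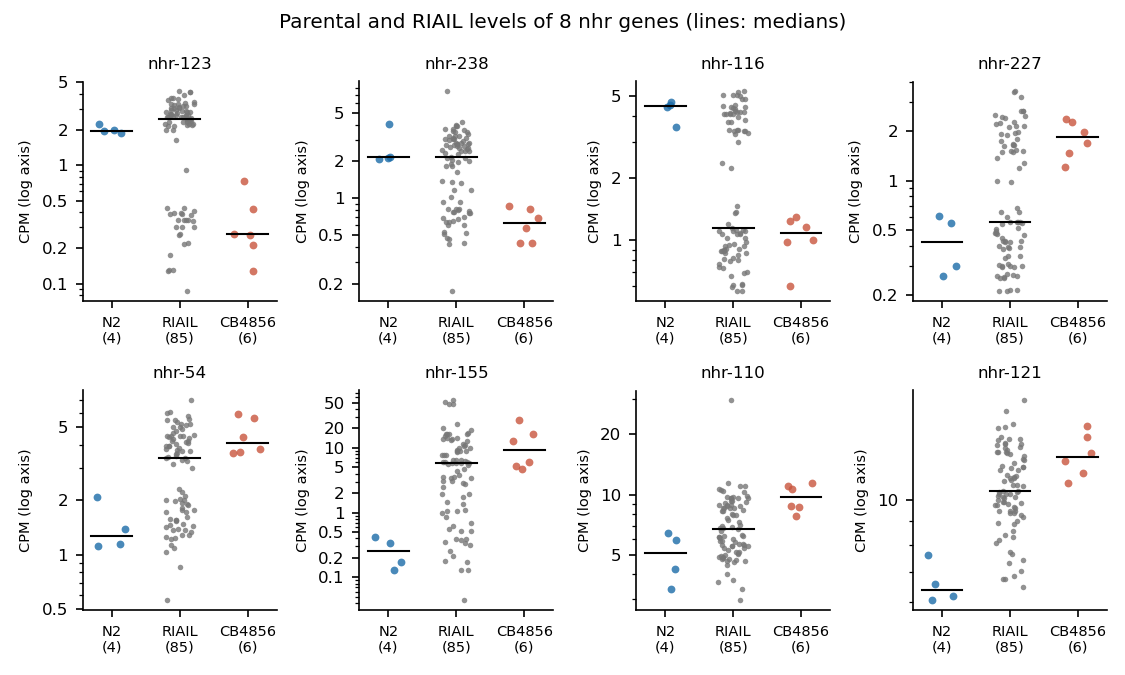
CPM (log axis) of 8 nhr genes in N2 (4 libraries, blue), the RIAILs (85, grey) and CB4856 (6, red); each point is a library and lines are medians. The RIAILs of nhr-116 and nhr-227 cover both parental ranges, and 49 of the 85 RIAILs of nhr-123 lie above both. Those of nhr-155 spread from 0.0447 to 53.9 CPM.

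The RIAIL values of these genes were split at the widest gap between neighbouring lines, the ends left out. Any gene has such a gap, so the sets describe the values and were not tested as groups. For nhr-123, 25 RIAILs were at 0.435 CPM or less and 60 at 0.902 CPM or more. Of these, 23 lay in the CB4856 range, 9 in the narrow N2 range and 49 above it, up to 4.20 CPM. For nhr-116, 47 RIAILs were at 1.47 CPM or less and 38 at 2.25 CPM or more, with 41 in the CB4856 range and 19 in the N2 range. For nhr-227, 49 were at 0.675 CPM or less and 36 at 0.982 CPM or more, with 39 in the N2 range and 23 in the CB4856 range. For nhr-54, which was not called among RIAILs (adjusted p = 0.0612), the widest gap lay between 2.27 and 2.98 CPM, with 38 lines below it and 47 above. For nhr-238 the widest gap lay between 1.38 and 1.63 CPM, and 43 RIAILs lay in the N2 range and 22 in the CB4856 range. For nhr-155, 10 RIAILs were in the N2 range, 42 in the CB4856 range, 3 below both and 4 above both, and QX552 (53.9 CPM) and QX560 (51.8 CPM) were the highest. Each of the 33 genes that differed between the parental strains had RIAILs in both parental ranges, and between 0 and 51 RIAILs lay outside both.

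nhr-195 rested on a single line. It was at 30.6 CPM in QX571, where the next RIAIL was at 3.44 CPM and the RIAIL median was 2.36 CPM, and without QX571 its adjusted p was 0.724. nhr-238 was also highest in QX571 (7.45 CPM, next 4.23) and its adjusted p was 0.0719 without that line and 0.0522 without QX501. The calls of nhr-116, nhr-227, nhr-123 and nhr-155 held without QX571. Over 15 alternative settings, nhr-116 and nhr-227 were called in all 15, nhr-195 in 13, nhr-123 in 8, nhr-155 in 7 and nhr-238 in 3. The losses of nhr-123 (adjusted p = 0.0595 to 0.0927) came with single parental libraries left out (N2 replicates 2, 3 and 4 and CB4856 replicates 2, 3, 4 and 5). Those of nhr-155 (0.0514 to 0.0935) came without N2 replicates 2, 3 or 4, without CB4856 replicates 2, 3, 4 or 6, and without the filter on low counts. Other genes at least 4 times their RIAIL median in QX571, and at 5 CPM or more, were nhr-109 (53.3 CPM, next 12.8), nhr-87 (25.6, next 7.597), nhr-110 (29.4, next 11.4) and nhr-263 (6.02, next 1.49).

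The correlations of receptor genes over the RIAILs were set beside the directions of their parental differences. Among the 33 genes called between the parents, 31 pairs had starts within 500 kb of each other, and in 29 of these the sign of the correlation over the 85 RIAILs (log2 CPM, centred within library series) was the one given by the directions of the parental differences. The corresponding counts were 58 of 84 pairs 500 to 5000 kb apart, 80 of 144 pairs farther apart on a chromosome and 182 of 269 pairs on different chromosomes. Some of the pairs counted include nhr-113, nhr-123, nhr-155 or nhr-227, which were kept through a single strain. The parental direction of these genes was set by the CPM minimum, and no count was made without them. The counts therefore describe the pairs and are not a test. The median size of r fell from 0.39 in the close pairs to 0.16, 0.11 and 0.13 in the others. nhr-115 and nhr-226, both kept through both strains and higher in CB4856, had an r of 0.56 at 2.34 kb. nhr-110 and nhr-238, of opposite direction, had an r of -0.53 at 5.84 kb, and nhr-54 and nhr-116, also opposite, -0.73 at 408 kb. These values describe lines that share chromosome segments, library series and stage, and the pairs share genes.

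The 5 most correlated pairs of the 16653 over the 85 RIAILs, after the same centring, were led by nhr-74 and nhr-113 on I (r = 0.87, 44.2 kb apart), and included nhr-18 and nhr-103 on V (0.81, 1.77 kb apart), nhr-91 and nhr-97 (0.81, on X and IV) and nhr-53 and nhr-88 (0.80, on V and II). nhr-109 and nhr-195 (0.83, on II and V) rested on extreme lines, since r was 0.43 without QX571 and QX569. Over all pairs the median size of r was 0.15.

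The RIAIL libraries fall into 7 series by the letter of their names, with 7 to 19 lines each, and the labels do not say what the letter marks. Series differences were common in the family as in the genome: 129 of 183 receptor genes (70.5%) differed between series, where 61.3% of 16686 genes did. The median spread between the highest and lowest series mean was 0.49 on the log2 CPM scale. Of the 129 genes, 55 were highest in series C, 43 in series A and 59 lowest in series F. The highest and lowest series were not counted over all genes, so whether this pattern is particular to the receptor genes was not tested. The intestinal markers had a median score of 0.58 in series C, 0.48 in series A, 0.44 in series G and -0.69 in series F, the lowest. Series G held the highest mean of 9 of the 129 genes. All 6 intestinal markers were called between series, and their part in the series differences was not tested. The 5 with the smallest p were nhr-117, nhr-178, nhr-10, nhr-105 and nhr-88. nhr-117 had a mean log2 CPM of 3.03 in series A and 2.07 to 2.28 in the others (adjusted p = 1.49e-13). nhr-10 was at 4.59 in series A against 3.92 to 4.23, nhr-105 at 4.03 against 3.10 to 3.54, and nhr-88 at 5.80 against 5.12 to 5.36. nhr-178 was instead highest in series C, at 1.83 against 0.64 to 1.16. CB4856 replicate 5, the parental library of series A, had the highest CB4856 value of nhr-117 (7.57 CPM), nhr-10 (23.8 CPM), nhr-105 (17.7 CPM) and nhr-88 (58.3 CPM). The median of the molting score described next, before scaling, was -0.71 in series A and 0.88 in series C, and 124 receptor genes still differed between series with that score in the model. Line and series cannot be told apart for a single RIAIL.

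**Figure D4:**
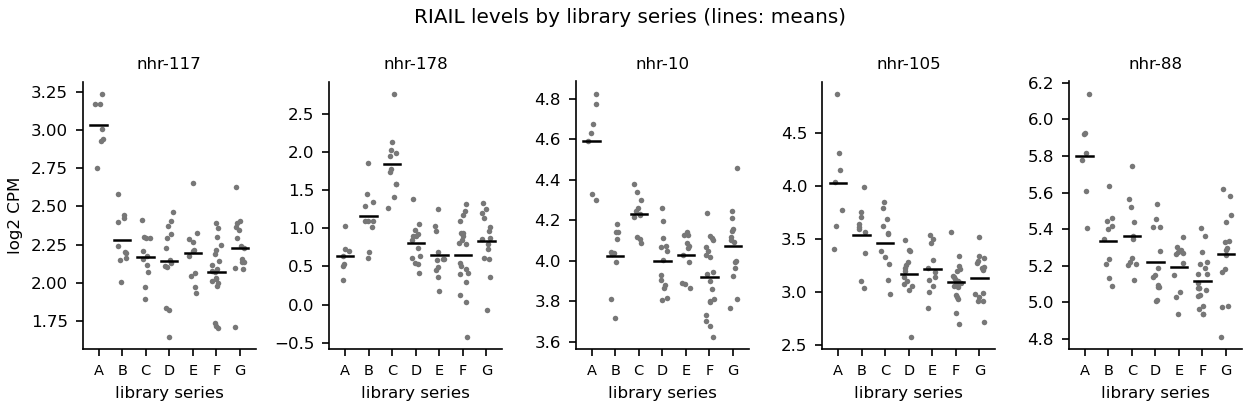
Log2 CPM of 5 nhr genes in the 85 RIAILs by library series; points are lines and bars are series means. Series A stands above the others for nhr-117, nhr-10, nhr-105 and nhr-88, and series C for nhr-178.

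Synchronized worms of a nominal stage can still differ in their progress through the molt, so that a molting score, the mean z score of log2 CPM over 21 genes of the molt (cuticle collagens, proteases and the like, without receptor genes) scaled to an SD of 1 over the RIAILs, was set against each receptor gene. Of 183 genes, 101 changed with the score (55.2%), 70 rising and 31 falling, where 32.2% of all 16318 genes rose and 33.4% fell (65.5% in all). Over the 85 RIAILs the score ran against those of vitellogenin (r = -0.86), adult cuticle (-0.71), oocyte (-0.63) and sperm genes (-0.58), so that these cannot be separated cleanly from it. With the oocyte and sperm scores in the model 25 receptor genes rose and 61 fell, and no model held the vitellogenin or cuticle scores. Of the 70 rising genes 24 were still called rising and none was called falling by edgeR, and of the 31 falling genes 30 were still called falling. Over all genes 3674 rose and 3484 fell in that model.

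**Figure D5:**
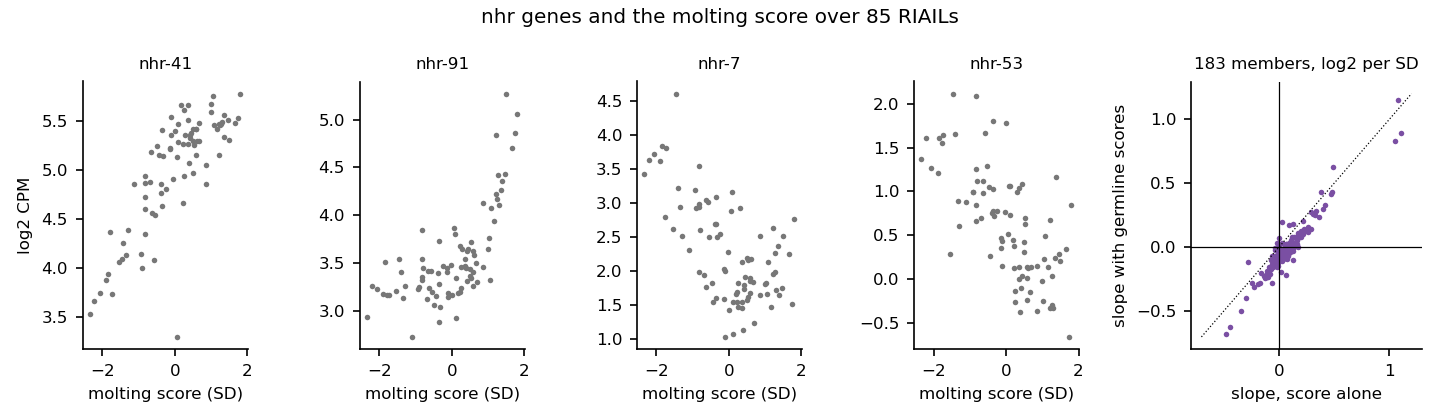
Log2 CPM of 4 nhr genes against the molting score (in SD) in the 85 RIAILs, and, at right, the slope of each of the 183 genes with the score alone (horizontal) against the slope with oocyte and sperm scores added (vertical), in log2 units per SD; the dotted line marks equal slopes. Most points at right lie below the dotted line, and nhr-41 rises while nhr-53 falls over the score.

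The steepest increases were those of nhr-113 (slope 1.11 log2 units per SD, SE 0.16), nhr-155 (1.08, SE 0.17), nhr-74 (1.05, SE 0.21), nhr-234 (0.49, SE 0.09), nhr-181 (0.49, SE 0.07) and nhr-41 (0.48, SE 0.04). nhr-41, related to the insect ecdysone-response receptor DHR78, followed the score most closely of these, ranging from 9.66 CPM in QX595 to 56.4 CPM in QX560 (Pearson's r = 0.81, permutation p = 1e-05, the smallest the permutations allow, adjusted over 24 correlations 1.85e-05; Spearman's rho = 0.79). Its r was 0.78 without the 2 lines farthest from the median score and 0.29 to 0.96 within the 7 series. Of the 12 steepest genes, 7 had 1 sign of r in all 7 series, and nhr-127 (-0.87 to 0.60), nhr-171 (-0.84 to 0.39), nhr-152 (-0.71 to 0.14), nhr-74 (-0.13 to 0.58) and nhr-234 (-0.04 to 0.86) did not. All 6 slopes kept their sign and call with the germline scores. The steepest decreases were those of nhr-7 (-0.48, SE 0.06), nhr-53 (-0.44, SE 0.05), nhr-127 (-0.34, SE 0.10), nhr-93 (-0.30, SE 0.06), nhr-171 (-0.28, SE 0.07) and nhr-152 (-0.24, SE 0.05). With the germline scores nhr-171 was no longer called (adjusted p = 0.252).

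Of the 31 role genes 19 changed with the score, 10 rising and 9 falling, where 65.5% of all genes changed. The 7 kept genes of molting and development were among the 19, 5 rising and 2 falling. nhr-91, related to the vertebrate germ cell nuclear factor, rose by 0.37 per SD (SE 0.04) and reached 40.2 CPM in QX552 against a RIAIL median of 10.7 CPM. nhr-67, which specifies the anchor cell of the gonad, rose by 0.29 (SE 0.04), nhr-6 by 0.12 (SE 0.05) and nhr-23, whose expression cycles with the molts, by 0.09 (SE 0.03). nhr-85, which cycles with nhr-23 in larvae, fell by 0.09 (SE 0.04) and nhr-1 by 0.05 (SE 0.02). nhr-6 gave -0.03 with the germline scores, and nhr-23, nhr-6 and nhr-85 were not called with series in the model (adjusted p = 0.145, 0.0726 and 0.690). nhr-85 was also not called without QX571 (adjusted p = 0.0643).

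Of the fat genes 5 of 8 changed, 4 falling: nhr-76, which acts in serotonin-driven fat loss (-0.16, SE 0.03), nhr-69 (-0.07), nhr-13 (-0.07) and nhr-64 (-0.05). nhr-80 rose (0.11, SE 0.05), but not without QX571 (adjusted p = 0.115). nhr-114 rose by 0.38 per SD (SE 0.04), while nhr-10 (-0.02, SE 0.03) and nhr-68 (-0.02, SE 0.04) were not called. Of the xenobiotic and immune genes nhr-176 rose (0.12) and nhr-45 (-0.05) and nhr-12 (-0.06) fell, nhr-12 not without QX571 (adjusted p = 0.0526). nhr-8 had a slope of 0.00 (SE 0.03). nhr-57 rose by 0.20 (SE 0.04), and neither nhr-28 nor nhr-14 was called. With the germline scores nhr-80 (adjusted p = 0.458), nhr-176 (0.709), nhr-57 (0.142) and nhr-46 (0.709) were no longer called, while nhr-10 and nhr-28 were called falling. Of the genes placed by tissue nhr-46 rose (0.08, SE 0.01) and nhr-31 fell (-0.10, SE 0.02). Among receptors with other names daf-12, the dafachronic acid receptor, and fax-1 rose and sex-1 fell, and 8 of 9 cofactor and hormone pathway genes changed, 5 rising and 3 falling. Of the 10 methionine cycle genes all changed, 9 rising.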

How the data were processed

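The data were a table of gene counts from 95 BGISEQ-500 RNA-seq libraries of total RNA (85 RIAILs, 4 N2, 6 CB4856). The authors deposited raw counts per gene, not normalized; per the labels and the study's methods, reads were checked with FastQC and aligned to WBcel235 with STAR 2.73a without trimming, while the sources used here do not name the counting tool, strand setting or annotation release. The labels and the study's methods differ on plate additions and stage at collection, so the stage is given only as nominal. Groups and replicates came from the labels. Reads from every strain were aligned to the N2 sequence, which can lower counts of divergent genes in CB4856.

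Gene symbols, positions and exon lengths came from the Ensembl annotation of WBcel235. One nhr gene is not reported here. CPM was count over column total. The main tests used R 4.3.3, edgeR 4.0.16 (TMM normalization, filterByExpr, robust quasi-likelihood F test) with Benjamini-Hochberg adjustment over all genes tested at 0.05, and log2 CPM with a prior count of 2. To test variation among RIAILs, the 85 line coefficients were set equal, with the residual spread and dispersion trend from the parental libraries. Alternatives were RLE size factors, limma-voom (limma 3.58.1), DESeq2 1.42.0, no filter on low counts, batch number, series, molting and germline terms, and left-out libraries; leaving out QX571 was chosen after seeing the data. The main edgeR fits were run on simulated counts with known changes, at a dispersion set below the trend estimated from the real counts. The alternative settings were not simulated, and recovery in the simulations is not used as support here. Deviations of N2 and CB4856 libraries of equal batch number from their strain means correlated at 0.64, 0.18, 0.08 and -0.46, the titles being the source of the pairing.

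The genes, gene lists and roles were chosen with earlier results of these data known. Named genes were those with a role; the 5 highest medians in each strain; up to 8 called genes in each direction between strains with a mean of at least 1 CPM; up to 8 called genes with the largest SD over RIAILs and a mean log2 CPM of at least 1; the 5 smallest p for series; the 6 largest slopes in each direction; 3 genes on each side of the CPM minimum; and the 5 most correlated pairs. Other called genes were named after their values were seen. No nucleotide or protein sequences were used here.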

Additional observations from a re-analysis of the deposited data

Results flagged for a closer look

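Among the named genes, 128 sets of N2 or CB4856 libraries were searched for a library far from the others (Dixon's rule, which chance alone passes in about 1 set in 20), and 16 sets held such a library. CB4856 replicate 5 of series A was the highest of 6 for nhr-7 (9.44 CPM, next 4.49), nhr-10 (23.8 CPM, next 18.4), nhr-53 (3.83 CPM, next 1.94), nhr-69 (26.9 CPM, next 23.4) and nhr-109 (11.6 CPM, next 9.28), and the lowest for nhr-66 (29.1 CPM, next 40.4). CB4856 replicate 1 of series C was the highest for nhr-8 (57.5 CPM, next 39.3), nhr-80 (19.6 CPM, next 14.5), nhr-97 (211 CPM, next 160), nhr-103 (6.34 CPM, next 5.22), nhr-113 (0.820 CPM, next 0.172) and nhr-178 (3.97 CPM, next 2.03). N2 replicate 1 was the highest of 4 for nhr-97 (185 CPM, next 128) and nhr-238 (4.05 CPM, next 2.18) and the lowest for nhr-198 (0.0843 CPM, next 0.256). N2 replicate 3 was the highest for nhr-68 (51.1 CPM, next 27.1).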

How the results depend on the processing

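The count of receptor genes called between N2 and CB4856 was 33, and 26 to 46 under the planned settings other than these: 17 in the 8 numbered libraries without the replicate block (23 with the replicate block), 2 with library series as a block, and 19 to 58 over the libraries left out in turn. RLE size factors gave 33, limma-voom 32, DESeq2 46, no filter 26 and the molting covariate 43. The shares of all genes called under these settings are not given here. For variation among RIAILs (6) the left-out libraries gave 2 to 10, and 4 remained called without QX571. The series count (129) was at most 135 and the molting count (101) was 86 to 102 in every setting run, with 25 rising and 61 falling genes under the germline scores against 70 and 31. With the oocyte and sperm scores 14 of the 101 slopes changed sign. Among named genes, whether or not among the 101, positive slopes turned negative for nhr-6 (-0.0304), nhr-40 (-0.0639), nhr-42 (-0.0869), nhr-105 (-0.193), nhr-18 (-0.0439), nhr-103 (-0.0386) and others. Of these, nhr-40, nhr-42 and nhr-105 were called falling with the germline scores, but they had not been called with the score alone. Causes were not tested. Genes near the CPM minimum rest on few counts.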

Other observations

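Of the 85 nhr genes under the CPM minimum, 1 had no count in any library. nhr-290 on V was at 5.19 CPM (120 counts) in the RIAIL QX537, where the next RIAIL was at 1.38 CPM and the RIAIL median was 0.0854 CPM. In QX531, nhr-7 was at 24.5 CPM, where the next RIAIL was at 13.9 CPM. QX560, QX552 and QX562 followed QX571 as the lines in which the most receptor genes had their highest CPM, with 19, 18 and 15 of 183.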
